A study of Homo sapiens with 19 samples.

Results

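SLC14A1, SCG2, NEGR1, AQP5 and CHPF are 5 protein-coding genes. Among the genes eligible for the ranking, their RNA rose most when the long noncoding RNA SCIRT was depleted in spheres of the breast cancer line MDA-MB-231. They were chosen from these data. Eligible genes were called as rises with each of 2 SCIRT siRNAs, with no overlap between groups. They also had a mean normalized count of at least 100 in the higher siSCIRT group and a symbol other than a clone or LINC name. NEGR1 and AQP5 met this level only with siSCIRT, as their siNC means were 69.6 and 58.5. Eligible genes were ranked by the mean log2 fold change of both siRNAs. The 5 genes took ranks 1 to 5 of 523 such rises, and all 5 are listed in each of the 3 tables used here, among 19021 genes in the culture table, 26955 in the siSCIRT table and 28870 in the siEZH2 table. Their rise with siSCIRT is therefore the rule that picked them and no finding. The question addressed is where the same genes stand in adherent cells and in spheres of 16 h and 5 d, and whether depletion of EZH2 moves them.

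The genes belong to unlike pathways. SLC14A1 encodes a urea transporter best known from red cells and kidney, and AQP5 encodes a water channel of secretory epithelia such as salivary, lacrimal and mammary gland. CHPF encodes chondroitin polymerizing factor, which acts with chondroitin synthases to lengthen the chondroitin chains that are then sulfated and carried by proteoglycans. SCG2 encodes secretogranin II, a granin stored in the dense-core vesicles of neuroendocrine cells and cut into peptides such as secretoneurin. NEGR1 encodes a cell adhesion molecule of the IgLON family, anchored to the surface of neurons by a lipid tail. EZH2 is the enzyme of Polycomb repressive complex 2 that methylates histone H3 at lysine 27, a mark of silenced genes.

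RNA was sequenced in 19 libraries. All are of MDA-MB-231, which is a triple-negative breast cancer line with mesenchymal features. Adherent cells (n = 2) grew in DMEM with 10% fetal calf serum, penicillin, streptomycin and glutamine. Spheres of 16 h (n = 2) and 5 d (n = 2) floated on non-adherent plates in DMEM/F12 with B27 and 20 ng/ml each of EGF and FGF. The remaining libraries, also titled spheres, came from cells that were reverse transfected with siRNA and kept in that sphere medium for 48 h: siSCIRT 1, siSCIRT 2 and a control called siNC in one experiment (n = 3 for each of them), and siEZH2 and a separate siNC in the other (n = 2 for both). Medium, its supplements and attachment differ together between spheres and adherent cells, so they cannot be told apart. The labels give no separate cultures behind the replicates, so the p-values measure the spread between these libraries of 1 line, which may be technical. The fits share this spread between genes, so the p-value of a gene does not rest on its own libraries alone.

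Library totals ran from 6104222 to 14781941 reads in the culture table, 27989577 to 38955312 in the siEZH2 table and 38635418 to 62218847 in the siSCIRT table, so the weaker members rest on few reads in the culture libraries. The line's mesenchymal markers, which include VIM, CD44 and AXL, summed to between 3655 and 8006 RPM (reads of a gene as a share of the library's total) across all libraries. A list of receptor and epithelial genes taken as low in this line, among them ESR1, PGR, CDH1, ERBB2 and EPCAM, summed to between 55.6 and 93.0 RPM. Values below are normalized counts, that is reads per gene divided by the library's size factor as the authors set it, and they compare libraries within a table only. Members of both marker lists differed in level. In the culture table ERBB2 carried most of the low list's sum, with group means from 574 to 700, and EPCAM ran from 24.4 to 91.8. ESR1 averaged at most 1.06 there and PGR was not listed. SPARC, of the mesenchymal list, averaged 2.82 to 5.67. The siRNAs lowered their targets. SCIRT, listed as RP5-1120P11.1, stood at 264, 287 and 256 in its controls, at 121, 112 and 127 under siSCIRT 1 and at 159, 105 and 117 under siSCIRT 2. EZH2 stood at 518 and 529 in its controls and at 275 and 278 under siEZH2. EZH2 RNA was also lower with the SCIRT siRNAs. It ran from 2280 to 2699 with siNC, 1670.5 to 1841 under siSCIRT 1 and 1668 to 1847 under siSCIRT 2. In the culture table it ran from 490 to 518 in adherent cells, 161 to 162 at 16 h and 317 to 350 at 5 d. The part of EZH2 in the siSCIRT and culture results was not tested.

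In the siSCIRT table, every one of the 5 genes was higher in all 6 siSCIRT libraries than in all 3 siNC libraries, as the rule required. SLC14A1 read 191, 297 and 246 in the siNC libraries, 507, 566 and 498 under siSCIRT 1, and 646, 802 and 668 under siSCIRT 2. AQP5 read 55.1, 59.7 and 60.7 in the siNC libraries, 134, 145 and 112 under siSCIRT 1, and 166, 119 and 113 under siSCIRT 2. The urea transporter stood higher in each library of siSCIRT 2 than in any of siSCIRT 1, while the libraries of the 2 siRNAs overlapped for the water channel. CHPF, the most abundant of the 5, read 4176, 4520 and 2731 in the siNC libraries, 9032, 7698 and 7836 under siSCIRT 1, and 9126, 7407 and 7731 under siSCIRT 2. SCG2 read 755, 792 and 813 in the siNC libraries, 2309, 2259 and 2016 under siSCIRT 1, and 1561, 1729 and 1742 under siSCIRT 2. For SCG2 the order of the 2 siRNAs was the opposite of that for SLC14A1, with no overlap between them. NEGR1 read 62.3, 80.0 and 66.6 in the siNC libraries, 167, 172 and 172 under siSCIRT 1, and 181, 155 and 138 under siSCIRT 2, so that both siRNAs overlapped.

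On the log2 scale of normalized count plus 1, the changes with siSCIRT 1 and siSCIRT 2 were 1.11 and 1.54 for SLC14A1, 1.48 and 1.09 for SCG2, 1.29 and 1.17 for NEGR1, 1.14 and 1.15 for AQP5, and 1.13 and 1.11 for CHPF. These are descriptions without a test, since they chose the genes, and both siRNAs share their 3 siNC libraries. Among all 16607 genes tested in that table, 10.2% were called with siSCIRT 1, 4.63% as rises and 5.56% as falls, and 9.54% with siSCIRT 2, 4.49% as rises and 5.05% as falls. The lowest siNC value of CHPF, 2731 in replicate 3, stood apart from the other 2 controls, and without that library its changes were 0.91 and 0.89. The mean of both siRNAs was 1.12 for CHPF, the last gene inside the rule. It was 1.10 for ID3, the first outside, then 1.02 for CHRDL1, 0.95 for C7, 0.92 for NR4A3 and 0.92 for XKRX, so no gap separates the 5 genes from those that follow.

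The promoters of 3 of the 5 genes, SLC14A1, AQP5 and CHPF, were found in the RefSeq promoter table for GRCh38.p14. They are shown because these genes moved together with siSCIRT, to let their start regions be compared. Each is a 300-base window around the annotated start, printed in the direction of transcription, and capitals mark every match to a searched motif on either strand. The window of SLC14A1 is chr18:45723931-45724230 on the plus strand, that of AQP5 chr12:49961622-49961921 on the plus strand and that of CHPF chr2:219543760-219544059 on the minus strand.
SLC14A1: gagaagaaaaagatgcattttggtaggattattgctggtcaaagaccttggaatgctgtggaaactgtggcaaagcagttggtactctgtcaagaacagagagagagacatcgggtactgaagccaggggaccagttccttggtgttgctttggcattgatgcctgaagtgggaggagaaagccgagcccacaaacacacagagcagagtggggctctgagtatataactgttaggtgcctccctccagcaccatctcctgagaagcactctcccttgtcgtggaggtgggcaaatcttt
AQP5: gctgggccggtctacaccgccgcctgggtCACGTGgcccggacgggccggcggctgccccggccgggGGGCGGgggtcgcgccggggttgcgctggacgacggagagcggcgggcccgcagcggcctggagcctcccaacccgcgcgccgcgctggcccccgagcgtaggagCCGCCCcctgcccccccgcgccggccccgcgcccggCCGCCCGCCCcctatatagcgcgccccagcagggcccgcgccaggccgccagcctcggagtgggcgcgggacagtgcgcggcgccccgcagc
CHPF: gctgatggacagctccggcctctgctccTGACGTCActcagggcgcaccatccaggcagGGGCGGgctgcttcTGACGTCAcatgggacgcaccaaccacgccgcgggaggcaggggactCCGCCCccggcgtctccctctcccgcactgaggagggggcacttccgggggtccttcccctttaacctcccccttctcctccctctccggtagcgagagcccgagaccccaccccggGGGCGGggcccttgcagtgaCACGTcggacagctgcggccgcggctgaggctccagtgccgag

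The 3 windows differ in base composition. GC content was 50% for SLC14A1, 84% for AQP5 and 71% for CHPF, against a median of 58.7% over 35116 promoters of the same length, and 99.5% of promoters had a lower GC content than that of AQP5. The motifs searched, with the share of all promoters that hold each, were TATAAA (the TATA box, 11.5%), GGGCGG (the GC box, 45.0%), CCAAT (34.6%), ACGTG (the core of the hypoxia response element, 21.4%), CACGTG (an E-box that contains the former, 7.26%), TAAACA (forkhead core, 12.3%), TGACGTCA (the cAMP response element, 1.85%) and TGACTCA (the AP-1 site, 4.95%). The CHPF window held TGACGTCA at 2 places, beginning at -222 and -177 relative to the start, GGGCGG at 3, and ACGTG once, at 7, read on the other strand. The AQP5 window held GGGCGG at 4 places, a pair of them overlapping, and CACGTG once at -221, which holds ACGTG on both strands. AQP5 and CHPF thus both held GGGCGG and ACGTG. The SLC14A1 window held none of the motifs searched. A second annotated start of SLC14A1 held TAAACA once, a match to ACGTG once and CCAAT once, and a second start of CHPF held CCAAT once. A match describes letters in a window and says nothing of binding.

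**Figure D1:**
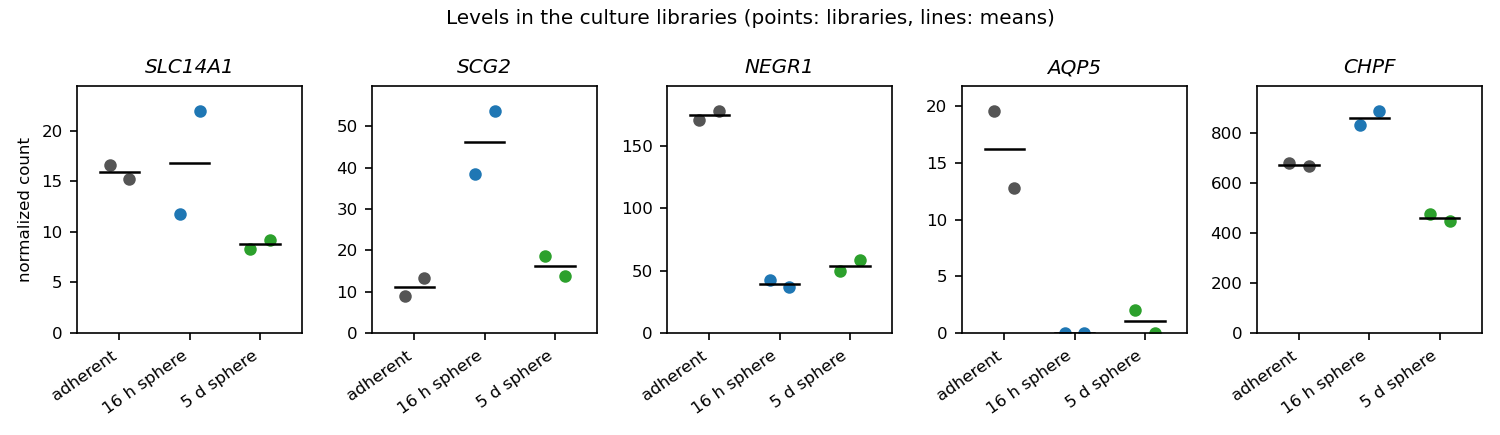
Normalized counts of the 5 genes (vertical axes, each from 0) in adherent cells, 16 h spheres and 5 d spheres; points are libraries (n = 2 per group) and lines are group means. NEGR1 and AQP5 are lower in all sphere libraries than in both adherent libraries, SCG2 is highest at 16 h, CHPF is highest at 16 h and lowest at 5 d, and SLC14A1 overlaps between adherent cells and 16 h spheres.

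The 5 genes did not move as a group between adherent cells and spheres (the plot of levels by culture). At 16 h SCG2 and CHPF rose, NEGR1 fell and SLC14A1 did not pass the test, so that 2 of the 4 genes with a mean of at least 10 rose and 1 fell by limma's moderated test at a Benjamini-Hochberg adjusted p under 0.05. Among all 13789 genes tested, 53.9% were called at 16 h, 27.4% as rises and 26.5% as falls. At 5 d NEGR1 and CHPF fell, and SLC14A1 and SCG2 did not pass, against a background of 55.2% called, 26.3% as rises and 28.9% as falls. Where most genes are called in each comparison, such counts do not set the 5 genes apart from other genes. AQP5 was below the filter in this table and is described by its reads. In bulk RNA, fewer cells that express a gene and less RNA per cell cannot be told apart. The mitochondrial share of reads also moved with culture, from 6.83 to 6.89% in adherent cells to 8.55 to 8.56% at 16 h and 9.65 to 9.74% at 5 d, and its part in the culture results was not tested.

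Both transporters were weak in this table. SLC14A1 read 16.6 and 15.2 in adherent cells, 11.7 and 22.0 at 16 h, and 8.28 and 9.24 at 5 d, from 6 to 25 reads per library. The 16 h libraries lay on either side of the adherent ones, and both 5 d libraries were below all others. The log2 change at 16 h was 0.02 ± 0.51 (SE), with a 95% interval from -1.03 to 1.06 and an adjusted p of 0.981 by limma. At 5 d it was -0.79 ± 0.51, with an interval from -1.84 to 0.25 and an adjusted p of 0.195. Each interval spans more than a doubling, so smaller changes were not detectable at this depth.

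AQP5 had reads in both adherent libraries and nearly none in spheres of 16 h and 5 d. It read 19.6 and 12.8 in adherent cells, from 26 and 21 reads, had no read in either 16 h library, and at 5 d read 2.07 in 1 library, from 2 reads, and 0 in the other. Taking 3 reads per library as the most that a count of 0 allows, AQP5 was at least 4.72-fold lower at 16 h than in adherent cells. At 5 d it was 13.1-fold lower, with a 95% exact Poisson interval from 3.62 to 108. This covers only the counting error of the 2 reads at 5 d, with the adherent mean taken as exact. When the filter was dropped, limma gave log2 differences of -4.08 (adjusted p = 5.8e-05) at 16 h and -3.27 (adjusted p = 0.00088) at 5 d, values that depend on the pseudocount of 1. An antisense RNA that overlaps AQP5 without sharing exon bases, listed as RP11-469H8.6, read 6.79 and 7.31 in adherent cells, 0 in both 16 h libraries, and 1.04 and 3.08 at 5 d. The library kit does not mark strand, and reads of this pair cannot be told apart where they overlap.

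CHPF, the chondroitin polymerizing factor, rose early and fell late. It read 681 and 666 in adherent cells, 832 and 889 at 16 h, and 474 and 447 at 5 d, with no overlap between any 2 groups. The log2 change was 0.35 ± 0.08 at 16 h (limma adjusted p = 0.00027) and -0.55 ± 0.08 at 5 d (adjusted p = 2.8e-07). The step from 16 h to 5 d was -0.90 ± 0.08 (adjusted p = 4.6e-12), in a comparison in which 48.3% of all genes were called, 22.8% as rises and 25.5% as falls. CHPF shares 125 exon bases with TMEM198 on the other strand. TMEM198 read no more than 9.13 in any culture library, which is far below CHPF.

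SCG2 rose at 16 h and fell from 16 h to 5 d, where it did not pass the test against adherent cells. It read 9.06 and 13.4 in adherent cells, 38.4 and 53.7 at 16 h, and 18.6 and 13.9 at 5 d, from 9 to 44 reads per library. Both 16 h libraries were above all others, and both 5 d libraries were above both adherent ones by a narrow margin. The log2 change was 1.95 ± 0.43 at 16 h (limma adjusted p = 0.00018) and 0.51 ± 0.43 at 5 d (adjusted p = 0.324, interval from -0.36 to 1.37). From 16 h to 5 d it fell by 1.44 ± 0.43 (adjusted p = 0.0051). Without the higher 16 h library, replicate 2, this last change was -1.20 with an adjusted p of 0.0767.

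NEGR1 showed the largest fall among the 4 genes tested. It read 171 and 178 in adherent cells, 42.6 and 36.6 at 16 h, and 49.7 and 58.5 at 5 d, so that all 4 sphere libraries lay far below both adherent ones. The log2 change was -2.12 ± 0.24 at 16 h (limma adjusted p = 8.5e-10) and -1.68 ± 0.24 at 5 d (adjusted p = 1.5e-07). The 5 d libraries stood above the 16 h libraries, by 0.44 ± 0.24, which did not pass (adjusted p = 0.125, interval from -0.04 to 0.92). NEGR1 therefore rose with siSCIRT by the rule that chose it and was lower in spheres than in adherent cells, while SCG2 was higher with siSCIRT and higher at 16 h. SCIRT itself read 3.77 and 3.04 in adherent cells, 45.8 and 29.3 at 16 h, and 62.1 and 73.9 at 5 d.

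The genes whose culture pattern was most like that of each member were found by the root mean square difference of log2 values, centred on the adherent mean, over the 6 culture libraries and 11901 genes. For CHPF they were MEX3D, ALKBH2 and TOMM20, with differences of 0.05, 0.05 and 0.06. For NEGR1 they were WDR62, SLC20A2 and GLRB, with differences of 0.12, 0.13 and 0.13. For SCG2 they were THEMIS2, CRABP2 and FIBCD1, at 0.19, 0.20 and 0.23, and for SLC14A1 they were IMP4, CHID1 and POP7, at 0.16, 0.17 and 0.17. CHPF also had the highest counts of the 4. The part of its counts, or of the size of its changes, in this closer likeness was not tested. All points share the same libraries and depth, and Pearson's correlation in place of the difference named other genes for each of the 4.

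Per length, CHPF was the most abundant of the 5 in each group of every table. In TPM (reads per kilobase of exon, scaled to the same total in every library), CHPF stood at 67.5 ± 0.75 (SD, n = 2) in adherent cells, above 83.3% of the genes tested. NEGR1 followed at 4.38 ± 0.15, AQP5 at 2.89 ± 0.85, SCG2 at 1.39 ± 0.39 and SLC14A1 at 0.74 ± 0.04. At 16 h the order behind CHPF (69.4 ± 3.1) changed to SCG2 at 4.58 ± 1.1, NEGR1 at 0.80 ± 0.09 and SLC14A1 at 0.63 ± 0.27, with AQP5 at 0. The last 2 with reads did not differ beyond their spread. At 5 d CHPF stood at 43.3 ± 2.3, SCG2 at 1.89 ± 0.41, NEGR1 at 1.27 ± 0.13, SLC14A1 at 0.38 ± 0.03 and AQP5 at 0.17 ± 0.25. The means of SLC14A1 and AQP5 lay closer together there than the SD of AQP5.

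In the siNC libraries of the siSCIRT table the order was CHPF at 71.01 ± 17 TPM (SD, n = 3), SCG2 at 18.1 ± 1.2, SLC14A1 at 2.14 ± 0.52, AQP5 at 1.95 ± 0.16 and NEGR1 at 0.33 ± 0.05. SLC14A1 and AQP5 did not differ beyond their spread there. With siSCIRT 1 the values were 155 ± 6.5 for CHPF, 51.4 ± 2.5 for SCG2, 4.66 ± 0.44 for SLC14A1, 4.41 ± 0.54 for AQP5 and 0.81 ± 0.05 for NEGR1, in the same order. With siSCIRT 2 they were 156 ± 13, 40.0 ± 3.5, 6.38 ± 0.96, 4.55 ± 0.86 and 0.76 ± 0.09. The order of the 5 genes was thus the same in all 3 groups of that table, and NEGR1 stayed a weak RNA after its rise, above 12.7% of tested genes with siSCIRT 1 and 12.2% with siSCIRT 2.

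**Figure D2:**
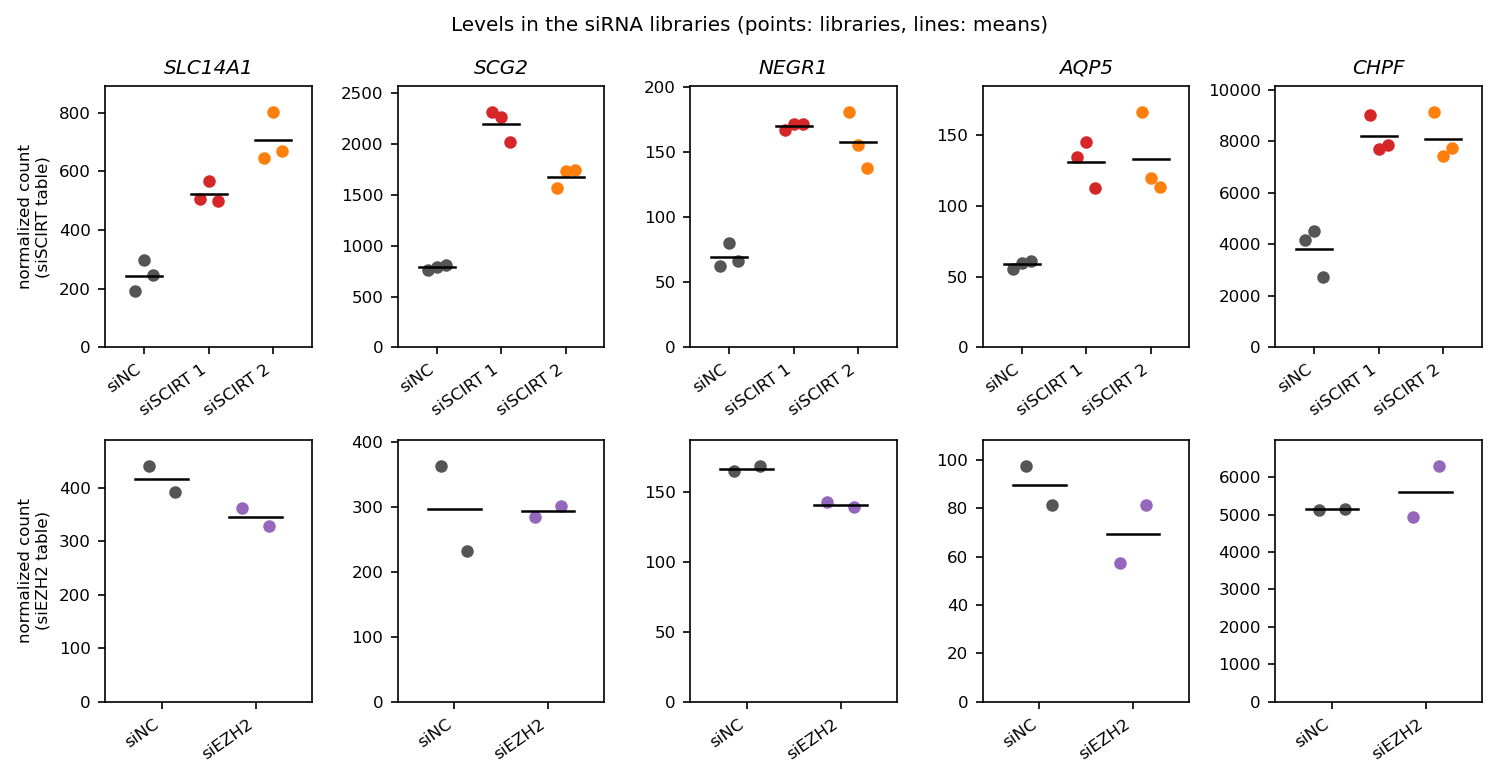
Normalized counts of the 5 genes (vertical axes, each from 0) in the siSCIRT table (top row: siNC, siSCIRT 1 and siSCIRT 2, n = 3 each) and the siEZH2 table (bottom row: siNC and siEZH2, n = 2 each); points are libraries and lines are group means, and the tables are scaled separately. All siSCIRT libraries lie above all siNC libraries, which is how the genes were chosen, while with siEZH2 SLC14A1, NEGR1 and AQP5 lie below siNC and SCG2 and CHPF overlap with it.

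With siEZH2 none of the 5 genes passed the test, against 6.84% of all 15823 genes tested, 3.9% as rises and 2.94% as falls (the plot of levels with siRNA). The count of 0 came from limma at the adjusted threshold. It was also 0 at an unadjusted p under 0.05, and 0 by edgeR and by DESeq2 at the adjusted threshold. For 3 of the genes both siEZH2 libraries lay below both siNC libraries, and for the other 2 they overlapped. Of all genes tested, 22.6% lay below their controls without overlap and 25.3% above, with n = 2 per group, and the count of 3 was not tested against these shares.

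SLC14A1 read 441 and 393 in the siNC libraries and 362 and 328 in the siEZH2 libraries, for a log2 change of -0.27 ± 0.15 (limma adjusted p = 0.306, interval from -0.56 to 0.02). AQP5 read 97.5 and 81.6 in the siNC libraries and 57.2 and 81.4 in the siEZH2 libraries, for a change of -0.38 ± 0.22 (adjusted p = 0.346, interval from -0.81 to 0.05). NEGR1 read 165 and 169 in the siNC libraries and 143 and 139 in the siEZH2 libraries, for a change of -0.24 ± 0.18 (adjusted p = 0.510, interval from -0.60 to 0.11). These 3 genes lay below their controls without overlap, AQP5 by a margin of less than 1 normalized count.

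SCG2 read 363 and 232 in the siNC libraries and 285 and 302 in the siEZH2 libraries, for a change of 0.02 ± 0.15 (limma adjusted p = 0.976, interval from -0.29 to 0.32). CHPF read 5132 and 5163 in the siNC libraries and 4943 and 6297 in the siEZH2 libraries, for a change of 0.12 ± 0.12 (adjusted p = 0.654, interval from -0.12 to 0.35). For both genes the siEZH2 and siNC libraries overlapped, SCG2 because its controls lay apart and CHPF because its siEZH2 libraries did. The intervals rest on a spread shared with other genes and can be narrower than the spread of a gene's own libraries. The difference between the siEZH2 and siSCIRT responses was not tested, since the tables were normalized separately.

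**Figure D3:**
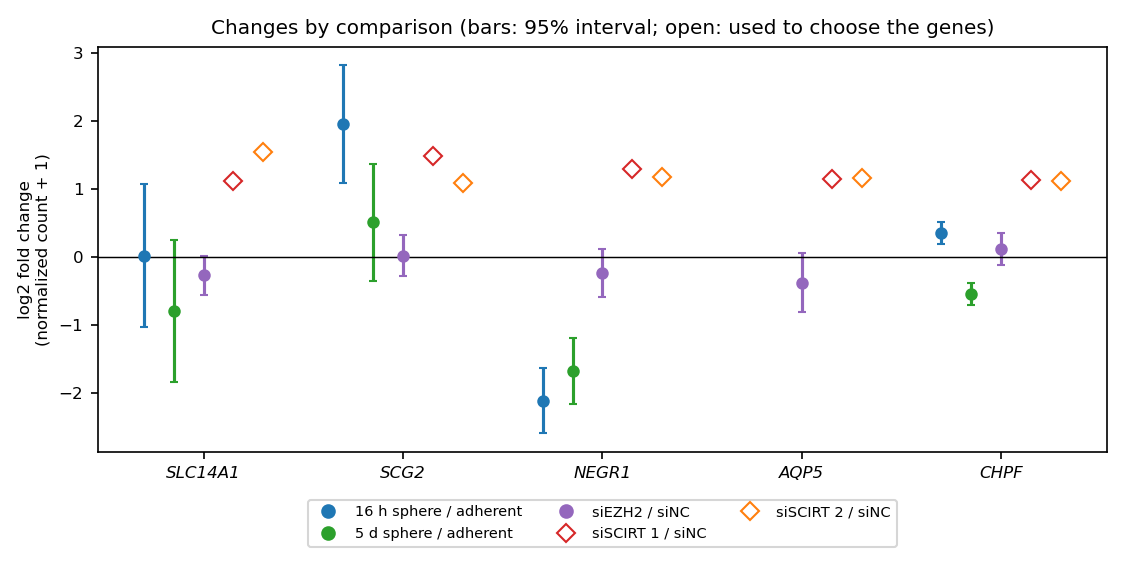
Log2 fold changes (vertical axis, normalized count plus 1) of the 5 genes for 16 h and 5 d spheres against adherent cells, siEZH2 against siNC, and each siSCIRT against siNC. Filled points carry 95% intervals from limma, open diamonds are the siSCIRT changes that chose the genes and have no interval, and AQP5 has no culture points because it was below the filter there. The diamonds lie between 1.09 and 1.54, the siEZH2 points between -0.38 and 0.12, and the culture points run from -2.12 for NEGR1 to 1.95 for SCG2.

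Overlapping genes were checked in the siRNA tables, because the kit does not mark strand. TMEM198, the partner of CHPF, read 192 to 241 with siNC, 184 to 230 with siSCIRT 1 and 165 to 202 with siSCIRT 2, with no rise beside that of CHPF. The antisense partner of AQP5, RP11-469H8.6, read 2.71 to 12.7 with siNC, 21.1 to 29.1 with siSCIRT 1 and 17.4 to 28.3 with siSCIRT 2, so it was higher in each siSCIRT library as AQP5 was. With siEZH2 it read 19.0 and 22.4 at its lowest and highest, against 11.9 and 19.1 with siNC. ZRANB2-AS2, which shares 631 exon bases with NEGR1 on the other strand, read 11.7 to 19.3 with siNC, 10.4 to 19.8 with siSCIRT 1 and 12.1 to 17.2 with siSCIRT 2.

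CHPF was set beside the other genes of chondroitin sulfate synthesis, from the xylosyltransferases that start the linker to the sulfotransferases that finish the chain (the plot of chondroitin sulfate synthesis genes). Of 26 such genes, 24 were tested in each table. With siSCIRT 1, 6 rose and none fell, and with siSCIRT 2, 7 rose and none fell, and the counts of both siRNAs rest on the same controls. The median change was 0.10 and 0.12, against 0.01 for all genes in each comparison. Of all genes tested, 4.63% rose and 5.56% fell with siSCIRT 1, 4.49% and 5.05% with siSCIRT 2, and 3.9% and 2.94% with siEZH2. At 16 h 27.4% rose and 26.5% fell, and at 5 d 26.3% and 28.9%. These shares stand beside the counts of every list here and below, and no list was tested against them. XYLT2, PXYLP1 (listed under its older symbol ACPL2), CSGALNACT1, CHST15, UST and SLC35D1 were called with both siRNAs, and CHPF2 with siSCIRT 2. These genes were named after their values were seen. The largest change was that of CSGALNACT1, which transfers the N-acetylgalactosamine that starts the chondroitin chain: 0.78 ± 0.08 (limma adjusted p = 2.8e-05) and 0.71 ± 0.08 (adjusted p = 8.3e-05).

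The partners of CHPF in polymerization moved little with siSCIRT. CHSY1, the main chondroitin synthase, changed by 0.00 ± 0.07 with siSCIRT 1 (limma adjusted p = 0.991) and 0.09 ± 0.07 with siSCIRT 2 (adjusted p = 0.482). CHSY3, a further synthase, changed by -0.16 ± 0.17 (adjusted p = 0.636) and 0.19 ± 0.17 (adjusted p = 0.556). CHPF2, the closest relative of CHPF, changed by 0.14 ± 0.06 (adjusted p = 0.136) and rose by 0.20 ± 0.06 (adjusted p = 0.0389). With siEZH2, 1 of the 24 genes rose, DSE, an epimerase that makes dermatan sulfate, by 0.39 ± 0.13 (adjusted p = 0.0318). CHST3, a sulfotransferase, fell, with a change of -0.47 ± 0.12 (adjusted p = 0.0027).

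Between cultures the list was mixed. At 16 h 8 of the 24 genes rose and 2 fell, with a median of 0.10 against -0.01 for all genes, and at 5 d 9 rose and 7 fell, with a median of -0.15 against -0.02. The largest changes among the more abundant genes at 16 h were the rises of SLC35D1, a nucleotide sugar transporter of the Golgi and endoplasmic reticulum (2.84 ± 0.09), CHST15, which adds a second sulfate to the chain's N-acetylgalactosamine (1.87 ± 0.06), PXYLP1 (1.83 ± 0.20) and DSEL (1.74 ± 0.17). CHSY1 rose at both times, by 0.99 ± 0.09 and 0.68 ± 0.09, whereas CHPF rose at 16 h and fell at 5 d. CHPF2 changed by 0.15 ± 0.07 at 16 h (limma adjusted p = 0.0675) and fell at 5 d, with a change of -0.41 ± 0.07 (adjusted p = 7.9e-06), the direction of CHPF. From 16 h to 5 d, 11 genes of the list fell and 4 rose. Of the proteoglycans that carry such chains, 14 were tested: 7 rose and 5 fell at 16 h, and 5 rose and 6 fell at 5 d. With siSCIRT 1, 2 of 17 rose and 3 fell, and with siSCIRT 2, 2 of 17 rose and 1 fell. With siEZH2, none of 16 rose and 2 fell.

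**Figure D4:**
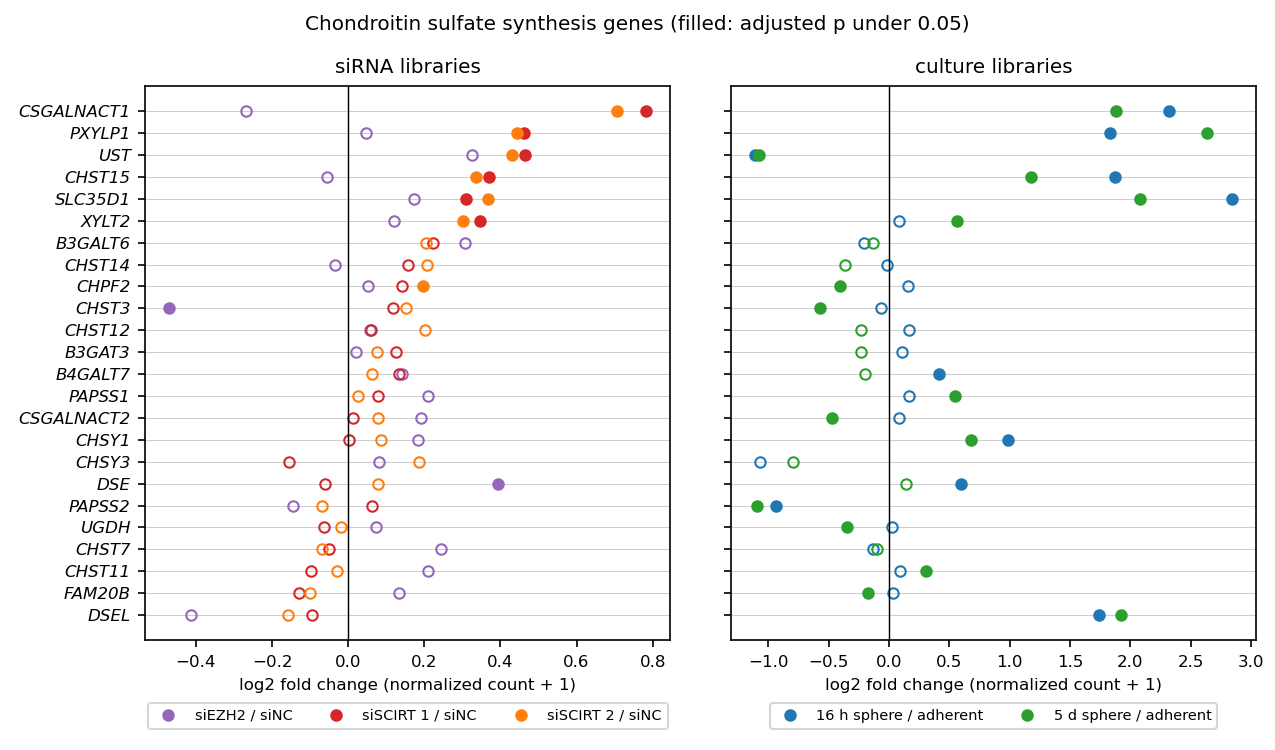
Log2 fold changes (horizontal axes, normalized count plus 1) of the 24 tested genes of chondroitin sulfate synthesis other than CHPF, for siEZH2, siSCIRT 1 and siSCIRT 2 against siNC (left) and for 16 h and 5 d spheres against adherent cells (right); filled points passed an adjusted p under 0.05. The filled siSCIRT points all lie above 0, at up to 0.78, while the filled culture points lie on both sides of 0, from -1.11 for UST to 2.84 for SLC35D1 at 16 h.

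The relatives of SLC14A1 and AQP5, a list of 14 water, glycerol and urea channels, were mostly weak or not listed in the culture table. In the siNC libraries of the siSCIRT table AQP3 averaged 1432, AQP1 115 and AQP11 51.6. The culture table listed 6 of the 14, and 1 passed the filter, AQP3, an aquaglyceroporin of epithelia. AQP3 rose by 1.78 ± 0.17 at 16 h (limma adjusted p = 1.9e-11) and 1.12 ± 0.17 at 5 d (adjusted p = 6.5e-07), whereas AQP5 had 0 to 2 reads in these sphere libraries. With siSCIRT, 5 of the channels were tested, of which AQP3 rose with both siRNAs, by 0.42 ± 0.08 (adjusted p = 0.0026) and 0.33 ± 0.08 (adjusted p = 0.014). AQP1 rose with siSCIRT 1, by 0.75 ± 0.17 (adjusted p = 0.0126), and was named after its value was seen. With siEZH2 the count was 0 of 4 by limma, edgeR and DESeq2, with 2 lower at an unadjusted p under 0.05, and AQP3 changed by -0.30 ± 0.12 (adjusted p = 0.133). SLC14A2, the other urea transporter, read 12.4 ± 3.0 (SD, n = 3) with siNC, 11.3 ± 4.8 with siSCIRT 1 and 9.28 ± 5.0 with siSCIRT 2. Genes of the textbook response to high osmolarity, 13 to 14 of 15 tested, gave no rise and 2 falls with each SCIRT siRNA, 2 rises with siEZH2, 9 rises and 2 falls at 16 h, and 6 rises and 4 falls at 5 d.

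Among the other granins CHGA and CHGB were near 0 in the siSCIRT table. CHGB, chromogranin B, read 0.88 ± 0.90 with siNC and 1.70 ± 1.1 and 2.06 ± 0.74 with the SCIRT siRNAs (SD, n = 3), and CHGA, chromogranin A, stood at 1.80 ± 0.96, 0.68 ± 0.59 and 2.02 ± 2.0. In the siEZH2 table CHGB averaged 5.14 ± 0.51 with siNC and 11.9 ± 6.2 with siEZH2 (SD, n = 2). It was below the filter there and was not tested, and CHGA averaged at most 0.90. Over granins and the enzymes that process prohormones, 11 genes were tested with siSCIRT, of which none rose and 1 fell with siSCIRT 1, and 1 rose and none fell with siSCIRT 2. The gene that fell was SCG5, secretogranin V, a chaperone of a prohormone convertase, named after its values were seen. It read 468 ± 137 (SD, n = 3) with siNC and 248 ± 90.5 with siSCIRT 1, a change of -0.93 ± 0.27 (limma adjusted p = 0.0491). At 16 h, where SCG2 rose, 5 of 9 tested genes rose and 1 fell, with a median of 0.39. CPE, the carboxypeptidase that trims granin peptides, rose by 1.67 ± 0.06 (limma adjusted p = 3e-23) and PAM, which amidates peptides, by 1.04 ± 0.04 (adjusted p = 6e-23). SCG5 also rose at 16 h, by 1.43 ± 0.57 (adjusted p = 0.0335). At 5 d 3 of the list rose and 3 fell, among them SCG5, with a change of -3.36 ± 0.57 against adherent cells (adjusted p = 5.3e-06). With siEZH2 FURIN, a proprotein convertase, rose by 0.37 ± 0.12 (adjusted p = 0.033) and PCSK6, another, fell with a change of -0.68 ± 0.17 (adjusted p = 0.0016).

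Of 6 markers of neuroendocrine or neuronal cells tested at 16 h, where SCG2 rose, 3 rose and 1 fell. The 15 markers, of which 6 were listed in the culture table, summed to 80.5 to 84.0 RPM in adherent cells, 199 to 204 at 16 h and 80.6 to 95.1 at 5 d. ENO2, which is also a glycolytic enzyme, rose by 1.70 ± 0.08 at 16 h (limma adjusted p = 1e-20). SYT1, a calcium sensor of vesicle release, was the gene that fell, with a change of -1.73 ± 0.42 at 16 h (adjusted p = 0.00069). Of 6 tested with siSCIRT, 2 rose and none fell with siSCIRT 1, and none rose and 1 fell with siSCIRT 2, the last again SYT1 (-0.89 ± 0.22, adjusted p = 0.02). The siSCIRT table listed 10 of the 15, which summed to 316 to 341 with siNC, 379 to 420 with siSCIRT 1 and 351 to 422 with siSCIRT 2. In the siEZH2 table the sums overlapped, at 479 to 587 with siNC and 512 to 525 with siEZH2. ENO2 and STX1A carry most of these sums. The culture table has no row for the defining factors INSM1 and NEUROD1. The part of these markers in the results for SCG2 was not tested.

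The IgLON relatives of NEGR1 were weak or absent, apart from LSAMP in the siRNA libraries. In the siNC libraries of the siSCIRT table NEGR1 itself averaged 69.6, close to LSAMP, and IGLON5 averaged 12.9. LSAMP read 67.1 ± 18 (SD, n = 3) with siNC, 97.3 ± 15 with siSCIRT 1 and 91.7 ± 5.0 with siSCIRT 2, with log2 changes of 0.56 ± 0.22 (limma adjusted p = 0.132) and 0.48 ± 0.22 (adjusted p = 0.197), and NTM read at most 3.20 in any siSCIRT group on average. In the culture table LSAMP read 2.42 ± 0.84 (SD, n = 2) in adherent cells. Of the IgLON and neural adhesion genes, 8 were tested with siSCIRT: 2 rose and 1 fell with siSCIRT 1, and 2 rose and none fell with siSCIRT 2. With siEZH2 the count was 0 of 8 by limma, edgeR and DESeq2, with 1 lower in limma at an unadjusted p under 0.05. At 16 h 2 of 5 rose and 3 fell. L1CAM, a neural adhesion molecule, fell, with a change of -1.31 ± 0.11 (adjusted p = 5e-13), and at 5 d with one of -0.26 ± 0.11 (adjusted p = 0.0432). NRCAM of the same list went the other way, by 3.41 ± 0.42 at 16 h (limma adjusted p = 6.7e-09) and 1.33 ± 0.42 at 5 d (adjusted p = 0.0067). It was named after its values were seen. At 5 d 2 of the 5 rose and 2 fell. Of the guidance and growth factor genes of neurons, 11 were tested, of which 5 rose and 5 fell at 16 h and 5 rose and 3 fell at 5 d, and with each SCIRT siRNA 3 of 13 rose and 2 fell.

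Because the CHPF window holds the cAMP response element at 2 places, textbook targets of cAMP and CREB were counted as well. With siSCIRT 1, 3 of 13 rose and none fell, with siSCIRT 2, 2 rose and none fell, and with siEZH2 3 rose and 1 fell. At 16 h, where CHPF rose, 7 of 12 rose and 2 fell, with a median of 1.38 against -0.01 for all genes. The largest changes were the rises of AREG (4.76 ± 0.16), PER1 (4.16 ± 0.12), DUSP1 (2.91 ± 0.06) and FOS (2.68 ± 0.16). The 2 that fell were BDNF (-2.21 ± 0.14) and PPARGC1A (-2.01 ± 0.19), named after their values were seen. At 5 d, where CHPF fell, 6 rose and 3 fell. These lists were chosen with results of these data known, and a count beside a background of 53.9% or 55.2% called is a description. So is one beside 10.2% with siSCIRT 1, 9.54% with siSCIRT 2 or 6.84% with siEZH2.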

How the data were processed

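RNA was measured by sequencing in 19 libraries of MDA-MB-231, made, per the labels' protocols, from total RNA by a TruSeq kit without strand marks. CASAVA 1.4, hg19, Partek and TopHat2 stand in the submitters' processing notes without roles, and the counting program is not given in the sources used here. The culture and siSCIRT tables, as deposited, hold log2 values from a variance-stabilizing transform, with lowest values of 13.4 and 7.48, and these were turned back exactly into normalized counts. The deposited siEZH2 table holds signal on a linear scale, normalized counts set by the authors' size factors. In each of the 19 libraries 100% of the values gave whole reads at a tolerance of 0.05 reads, and these recovered counts gave the depths. The design had assumed linear values throughout. Columns of siSCIRT 2 carry their siRNA's number and those read here as siSCIRT 1 carry none, so results for siSCIRT 1 rest on an inference.

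The 3 tables had separate fits in limma 3.58.1 (R 4.3.3). The fits used log2(normalized count + 1), eBayes with its trend and robust options, and the genes whose mean was 10 or more. Calls are at a two-sided Benjamini-Hochberg adjusted p under 0.05 over all genes tested. The code of the fits was run on simulated counts with a fixed spread and no replicate structure. That says nothing of the calls on these libraries. Groups came from the sample titles. The members, gene lists and tests were chosen with earlier results of these data known. Named besides the members were the siRNA targets, the 3 nearest culture patterns per member, the next 5 siSCIRT rises, close relatives, and up to 4 called genes per list with a mean of at least 100, unless stated otherwise. RPM and TPM were computed from the recovered reads, with exon lengths of GENCODE 29, for which 95.1% to 96.5% of genes had a length. Floors of 3 reads and exact intervals cover only the counting error of the sphere reads, with the adherent mean taken as exact. Alternatives were another pseudocount, other filters, quantile normalization, plain eBayes, a block for the replicate number, a fit of the compared groups alone, the log2 values as deposited, edgeR 4.0.16, DESeq2 1.42.0 and leaving out each library.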

Additional observations from a re-analysis of the deposited data

Results flagged for a closer look

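For SCG2 and CHPF the change against adherent cells differed between 5 d and 16 h spheres, by -1.44 for SCG2 and -0.90 for CHPF on the log2 scale, the 5 d change minus the 16 h change. Both are limma's test of 5 d against 16 h spheres (adjusted p = 0.0051 and 4.6e-12), seen in both libraries of each time, and that for SCG2 does not pass without the second 16 h library.

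SLC14A1, NEGR1 and AQP5 lay below their controls in both siEZH2 libraries and above them in all siSCIRT libraries. The siEZH2 changes were -0.27 for SLC14A1, -0.24 for NEGR1 and -0.38 for AQP5, and none passed limma's test. Of all genes tested, 22.6% lay below their controls without overlap with siEZH2. The difference between the 2 siRNA responses was not tested, and the rise with siSCIRT is what chose the genes. EZH2 RNA was itself lower in all siSCIRT libraries than in their controls.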

How the results depend on the processing

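Over 246 recomputed values of the members, 238 kept their direction and their side of the threshold, 7 changed sign and 1 lost its call. Leaving out each library gave -0.41 to 0.44 for SLC14A1 at 16 h, -0.31 to 0.34 for SCG2 and -0.058 to 0.29 for CHPF with siEZH2, none of which was a call, and -1.68 to -1.20 for SCG2 from 16 h to 5 d. The lost call is that of SCG2 without the second 16 h library. SCG2 with siEZH2 was -0.027 by edgeR and -0.031 by DESeq2. AQP5 was tested between cultures only without the filter, at -4.08 and -3.27.

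Counts of all genes called moved more than the members did. Each gene named as called with siEZH2, such as FURIN, PCSK6, DSE and CHST3, lost its call under plain eBayes, which called none. With siEZH2, limma called 1082 genes, plain eBayes 0 (2471 at an unadjusted p under 0.05), DESeq2 678 and edgeR 1081, and leaving out a library gave 339 to 1035, with the 2 lowest counts, 339 and 504, without the first and the second siNC library. With siSCIRT 1, 1693 became 1009 under plain eBayes and 886 to 1830 without 1 library. With siSCIRT 2, 1584 became 870 and 769 to 1816. Both lowest counts came without the third siNC library. The cause was not tested. The replicate numbers were not used as pairs: same-numbered libraries correlated at -0.01 to 0.02 in the culture table, -0.09 with siEZH2 and 0.02 to 0.30 with siSCIRT, where 14 of 18 comparisons matched best on the own number. With the replicate block the counts were 532 with siEZH2, 3144 with siSCIRT 1 and 3110 with siSCIRT 2, and no member changed its call.

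Depth limits SLC14A1, SCG2 and AQP5 in the culture table, where they rest on 0 to 44 reads per library. Pearson's correlation named other genes as nearest patterns for all 4 members compared.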

Other observations

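The control siRNA was used in both siRNA experiments, and the members stood at unlike levels in these controls. In RPM, SLC14A1 stood at 3.53 to 5.65 in the siNC libraries of the siSCIRT experiment and at 11.4 to 13.4 in those of the siEZH2 experiment. NEGR1 stood at 1.15 to 1.52 and 4.90 to 5.04, AQP5 at 1.02 to 1.16 and 2.37 to 2.97, and CHPF at 52.0 to 85.9 and 150 to 157. SCG2 went the other way, at 13.9 to 15.5 and 6.74 to 11.08. For SLC14A1, AQP5 and CHPF the siNC range of the siEZH2 experiment overlapped the range with siSCIRT 2, which was 12.2 to 15.5, 2.16 to 3.13 and 143 to 172 RPM. For NEGR1 it lay above the siSCIRT 2 range of 2.63 to 3.42. The tables were made separately, the experiments differ in depth, and none of these differences was tested.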
